A study of Mus musculus with 6 samples.

Results

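The genes of the proteasome subunits and of the factors that assemble, open or restrain the proteasome were followed in B16.F10 cells, a pigmented mouse melanoma line, after 3.5 µM simvastatin for 24 h or no treatment. Members were taken by symbol: every row whose gene name is Psm, 1 letter from a to g, and a number. This gave 42 of the 8513 genes and 76 of the 15905 transcripts in the authors' table of the comparison. Both groups are the same cell line, are labelled wild type and carry the same batch date. The simvastatin group was treated at the concentration that the labels call its IC50, and the control group is labelled as untreated, with no vehicle named. Each group held 3 samples, described in the series text as biological replicates. Simvastatin blocks the synthesis of mevalonate, the precursor of cholesterol and of the lipid anchors of small GTPases.

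The 26S proteasome degrades proteins that carry ubiquitin chains. Its 20S core is a barrel of alpha rings outside and beta rings inside, and 3 of the beta subunits hold the active sites. The 19S regulatory particle has a base, with a ring of ATPases that unfold the substrate, and a lid, with a deubiquitinase that removes the chain. Other caps can replace the 19S particle, and interferon induces replacement beta subunits that form the immunoproteasome. The subunit genes are known to be switched on together by the transcription factor NRF1, encoded by Nfe2l1, when proteasome activity is short.

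The authors' table gives 1 value per group for each transcript, with no value per sample, so no SD can be given for any level below. Neither the unit of these values nor the depth of the libraries is known from the sources used here, and levels are therefore compared between groups and not between genes. All values summed to 344210 with simvastatin and 394749 in control, a log2 difference of -0.20. The 7 melanocyte markers that were checked (Mitf, Tyr, Tyrp1, Dct, Pmel, Mlana and Sox10) all had rows, with gene totals between 45.03 and 3437 with simvastatin and between 44.15 and 2307 in control. Of 5 leukocyte and 5 fibroblast markers, 0 had a matching row.

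Proteasome subunit genes stood lower with simvastatin almost throughout, by a small amount. Summed over its transcripts, the gene total was lower in 39 of the 42 genes (92.9%), against 48.3% of the 8505 genes of the table with a ratio. The median ratio of the 42 genes was 0.807, a log2 difference of -0.31, with an interquartile range of -0.41 to -0.19. Over all genes the median log2 difference was 0.019, with an interquartile range of -0.32 to 0.35. In bulk RNA, fewer cells that hold a transcript and less of it per cell cannot be told apart. The 3 genes with a higher total were Psmd8, a lid subunit, and the activator genes Psme4 and Psme2. By the adjusted p of the authors' deposited table, no single transcript passed the threshold of 0.05, so the shared direction is a description of 2 sets of group values and not a set of called changes.

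The share of member transcripts past a threshold was near the background of the table for the authors' higher calls and at an unadjusted p. In the other counts it was 0. With the threshold of 0.05 on its adjusted p, the authors' deposited table holds 0 member transcripts higher with simvastatin, where 1.11% of all transcripts were, and 0 lower, where 0.987% were. The authors' own call goes up to an adjusted p of 0.2 and starts at a fold of 1.5. It marks 4 member transcripts as higher (5.26%), all of Psmd8, against 5.13% of all transcripts. It marks 0 as lower, against 4.37% of all transcripts. At an unadjusted p under 0.05 in the authors' deposited table, 7 member transcripts were higher (9.21%, background 9.42%) and 9 were lower (11.8%, background 10.2%). The 7 lay in 3 genes, with 5 of them in Psmd8, and the 9 in 9 genes. The shares of all genes with such a transcript are not given here, so these gene counts have no matching background. Of the 12 member transcripts with an adjusted p of up to 0.2, 8 were lower and 4 higher. None of the 8 reached the fold of 1.5 that the authors' call asks for, and the largest among them was 1.46.

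The direction of the genes near the middle depends on how the groups are scaled. Scaling both groups to the same sum adds 0.20 to every log2 difference and moves the median of all genes to 0.22. Then 31 of the 42 members stood lower, against 33.9% of all genes, and the members' median was -0.11. The members that turn are Psmb2, Psmd1, Psmd2, Psmd4, Psmd11, Psme1, Psme3 and Psmf1. Relative to the median of all genes, which neither scaling affects, the members' median was -0.33, and 39 of the 42 lay below it.

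**Figure D1:**
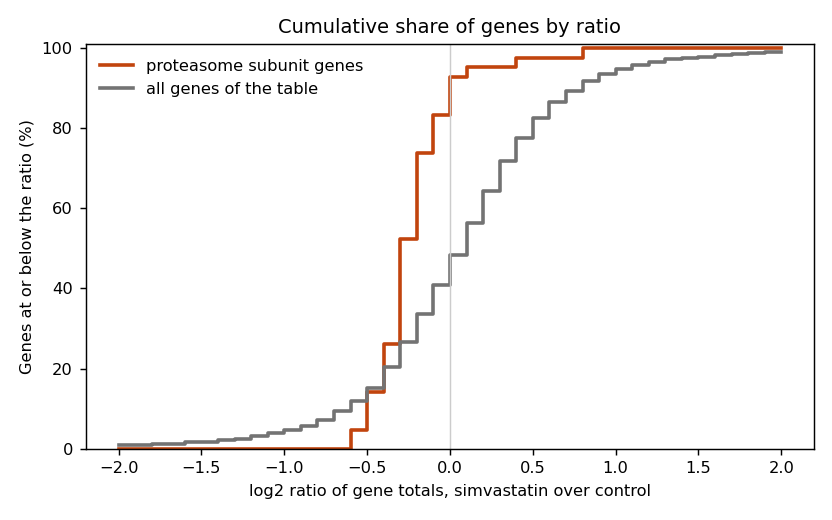
Cumulative share of genes (y axis, %) at or below each log2 ratio of gene totals, simvastatin over control (x axis, read at steps of 0.1), for the 42 proteasome subunit genes and for all 8505 genes with a ratio. At a ratio of 0 the proteasome curve stands at 92.9% and the curve of all genes at 48.3%; with both groups scaled to the same sum the zero line moves and 31 of the 42 members stay below it.

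The alpha subunits form the outer rings of the core and its gate. All 7 that had rows stood lower, with a median log2 difference of -0.43 and a range of -0.57 to -0.21. After scaling to the same sum all 7 were still lower. Psma7 had a gene total of 56.67 with simvastatin and 84.36 in control, the largest difference of this ring. Its most abundant transcript held 31.23 with simvastatin and 65.64 in control, while its other 2 transcripts stood at 11.78 and 13.66 with simvastatin, against 7.74 and 10.98 in control. The lower total of Psma7 thus came from 1 of its 3 transcripts, and the authors' deposited table gives that one a fold of -2.10 with an adjusted p of 0.631. Psma1 totalled 84.29 with simvastatin and 116.29 in control, and both of its transcripts stood lower. Psma5 stood at 45.83 with simvastatin and 62.74 in control. Psma6, a subunit with 1 transcript in the table, stood at 81.47 with simvastatin and 109.38 in control. Each of these ratios lay between 0.672 and 0.745. Psma4, whose tail is part of the gate, totalled 44.04 with simvastatin and 55.14 in control, and nearly all of that difference lay in its minor transcript, at 2.74 with simvastatin and 13.21 in control. Psma2 stood at 23.55 with simvastatin and 28.95 in control. Psma3 stood at 34.79 with simvastatin and 40.36 in control. The smallest p of the ring in the authors' deposited table was 0.068, for Psma2, with an adjusted p of 0.308.

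The beta subunits hold the protease sites. All 7 that had rows stood lower, with a median log2 difference of -0.35 and a range of -0.56 to -0.16, and after scaling to the same sum all but Psmb2 did. The 3 catalytic subunits had a median of -0.46 and the 4 without an active site a median of -0.30, with overlapping ranges. Psmb6, the caspase-like subunit, totalled 103.83 with simvastatin and 152.76 in control. The authors' deposited table gives its coding transcript 99.86 with simvastatin and 145.76 in control, a fold of -1.46, p of 0.02 and an adjusted p of 0.16. Psmb7, the trypsin-like subunit, stood at 88.17 with simvastatin and 121.36 in control, with an adjusted p of 0.199 in the authors' deposited table. Psmb5, the chymotrypsin-like subunit and the main target of the drug bortezomib, stood at 116.91 with simvastatin and 148.61 in control, with an adjusted p of 0.467 in the authors' deposited table. The order of the 3 catalytic ratios was therefore Psmb6, Psmb7 and Psmb5 from lowest to highest, and no replicate spread is known with which to separate them.

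Psmb3, a beta subunit without an active site, carries the smallest adjusted p of any member. Its single transcript stood at 111.74 with simvastatin and 145.16 in control, and the authors' deposited table gives it a fold of -1.30, a p of 0.003 and an adjusted p of 0.064. The fold is below the size the authors' call asks for. Psmb4 stood at 131.27 with simvastatin and 166.81 in control, a ratio of 0.787 close to that of Psmb3, with an adjusted p of 0.355 in the authors' deposited table. Psmb1 stood at 138.33 with simvastatin and 164.18 in control. Psmb2 stood at 30.30 with simvastatin and 33.97 in control, the smallest difference in the core.

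**Figure D2:**
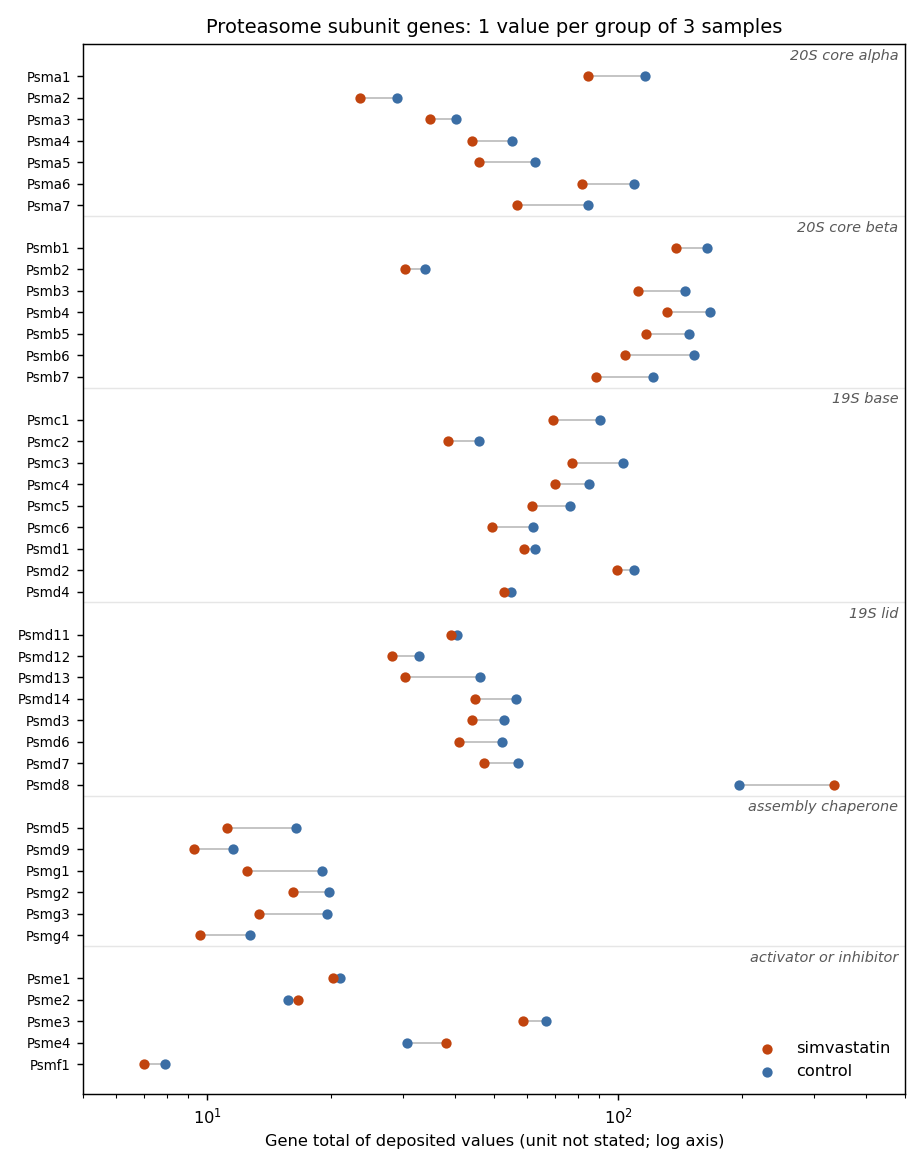
Gene totals of the 42 proteasome subunit genes (x axis, sum of the deposited transcript values in an unstated unit, log axis), 1 point for simvastatin and 1 for control in each row, grouped by place in the complex. The simvastatin point lies left of the control point in 39 rows and right of it for Psmd8, Psme2 and Psme4; scaled to the same sum, 31 rows keep simvastatin on the left.

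In the base of the 19S particle, all 9 genes stood lower, with a median log2 difference of -0.28, which was -0.079 after scaling to the same sum. All 6 ATPase genes stood lower under both scalings. Before scaling to the same sum their median log2 difference was -0.32 and the lowest value -0.41. The scaffold and receptor genes Psmd1, Psmd2 and Psmd4 stood lower by less, with a median of -0.089, and stood higher once both groups were scaled to the same sum. Among the ATPases, Psmc3 totalled 77.17 with simvastatin and 102.87 in control. The authors' deposited table gives its main transcript 66.92 with simvastatin and 93.98 in control, a fold of -1.40, p of 0.007 and an adjusted p of 0.095. Psmc1 stood at 69.46 with simvastatin and 90.31 in control, with a p of 0.009 and an adjusted p of 0.108 in the authors' deposited table. Psmc6 totalled 49.32 with simvastatin and 62.14 in control. Those are the 3 largest differences of the base. Psmc5 stood at 61.53 with simvastatin and 76.23 in control, with an adjusted p of 0.216 in the authors' deposited table. Psmc4 totalled 70.00 with simvastatin and 84.81 in control. Psmc2 totalled 38.63 with simvastatin and 45.73 in control, and its transcripts ran in opposite directions.

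The base genes outside the ATPase ring had the ratios nearest to 1 in the base, and their difference from the ATPases was not tested. Psmd1, a scaffold, totalled 59.15 with simvastatin and 62.92 in control. Psmd4, a ubiquitin receptor, totalled 52.66 with simvastatin and 54.82 in control. Psmd2, a scaffold that docks the shuttle factors which deliver substrates, totalled 99.12 with simvastatin and 109.22 in control. The total of Psmd2 hides a split between its transcripts. The coding one stood at 86.89 with simvastatin and 108.78 in control, and one annotated for nonsense-mediated decay stood at 12.23 with simvastatin and 0.44 in control. That decay transcript differs by a fold of 27.57 in the authors' deposited table, yet its adjusted p there is 0.748.

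The lid held both ends of the range over all 42 genes. Psmd8 had the highest log2 difference at 0.77 and Psmd13 the lowest at -0.61, and 7 of the 8 lid genes stood lower, with a median of -0.27 (-0.28 without Psmd8), all but Psmd11 under both scalings. Psmd13, on chr7:140881968-140898643 of GRCm38, totalled 30.22 with simvastatin and 46.16 in control. Its coding transcript stood at 26.21 with simvastatin and 33.78 in control. A retained-intron transcript of Psmd13 stood at 3.16 with simvastatin and 10.44 in control, with a p of 0.055 and an adjusted p of 0.275 in the authors' deposited table. The coding part of Psmd13 alone has a log2 difference of -0.37, nearer to the other subunits. Psmd14, the deubiquitinase of the lid, totalled 44.95 with simvastatin and 56.52 in control. Psmd7, its partner in the active pair, stood at 47.16 with simvastatin and 57.11 in control. Psmd6, a lid scaffold, stood at 41.04 with simvastatin and 52.26 in control, and Psmd6 followed Psmd13 in the size of its difference. Psmd3, another lid scaffold, stood at 44.02 with simvastatin and 52.68 in control. Psmd11, which bridges lid and core, totalled 39.18 with simvastatin and 40.57 in control. Psmd12 totalled 28.16 with simvastatin and 32.81 in control. The difference of Psmd12 came from a transcript at 0.02 with simvastatin and 6.28 in control, with an adjusted p of 0.603 in the authors' deposited table, while its main transcript stood at 28.14 with simvastatin and 26.53 in control.

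**Figure D3:**
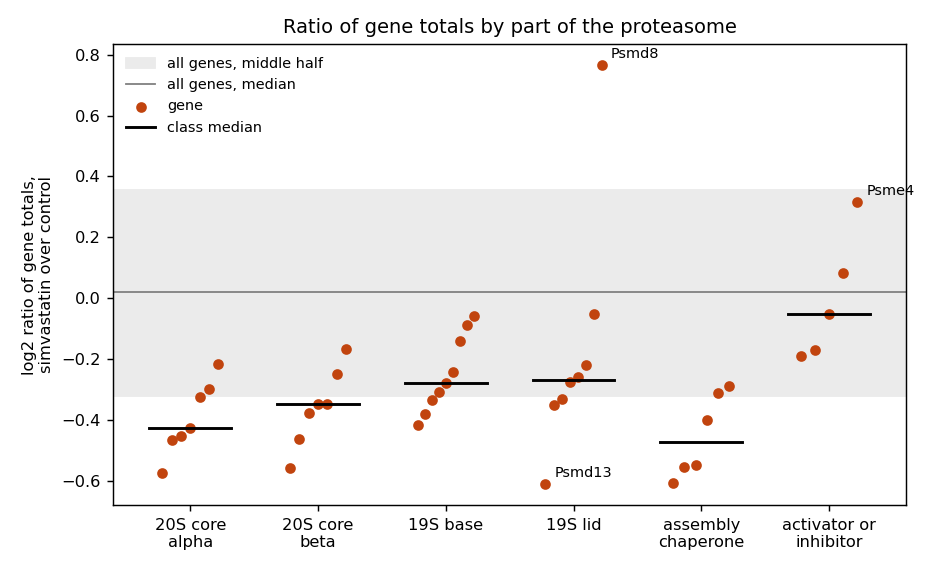
Log2 ratio of gene totals, simvastatin over control (y axis), for each of the 42 genes by place in the complex, with a bar at the median of each class and a band over the interquartile range of all genes. The class medians run from -0.47 in the assembly chaperones to -0.05 in the activators and inhibitor, where the median is 0.15 after scaling both groups to the same sum; Psmd8 lies alone at 0.77.

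Before scaling to the same sum, Psmd8 was the only member gene of the core, base and lid with a higher total. Psmd8 stood higher in every transcript. The gene encodes a lid subunit whose counterpart in yeast completes the lid, and it lies on the minus strand at chr7:29174188-29180701 of GRCm38, with no other annotated gene overlapping it. Its total was 334.16 with simvastatin and 196.47 in control, a ratio of 1.70 and a log2 difference of 0.77. Of all genes, 89.4% had a log2 difference of 0.7 or less and 91.7% one of 0.8 or less. All 6 Psmd8 transcripts in the table stood higher, and all 4 member transcripts that the authors' call marks belong to Psmd8. Those 4 make up 5.26% of member transcripts, near the 5.13% of all transcripts that the call marks as higher. The main coding transcript, ENSMUST00000182328, of 1391 nt and 7 exons, stood at 286.87 with simvastatin and 174.41 in control. The authors' deposited table gives that transcript a fold of 1.64, p of 0.016 and an adjusted p of 0.143. It made up 85.8% of the gene total with simvastatin and 88.8% in control, so the main form carried most of the difference. A second coding transcript, ENSMUST00000209034, stood at 24.76 with simvastatin and 10.64 in control, a fold of 2.33 with an adjusted p of 0.221 in the authors' deposited table, above the limit of their call. The last coding form, ENSMUST00000186182, stood at 4.91 with simvastatin and 3.33 in control, with a p of 0.438 in the authors' deposited table.

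The 3 retained-intron transcripts of Psmd8 had larger folds than its main coding form. ENSMUST00000208461 held 5.95 with simvastatin and 2.66 in control, a fold of 2.24 with an adjusted p of 0.078 in the authors' deposited table. ENSMUST00000208592 held 6.82 with simvastatin and 3.43 in control, a fold of 1.99 with an adjusted p of 0.095 in the authors' deposited table. ENSMUST00000207087 held 4.85 with simvastatin and 2.00 in control, a fold of 2.42 with an adjusted p of 0.186 in the authors' deposited table. All 3 are called by the authors. The library kit sequences total RNA, which includes unspliced and nuclear RNA, and reads of 1 locus are shared out between its transcript models, so the 6 transcripts of Psmd8 are not independent measurements.

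**Figure D4:**
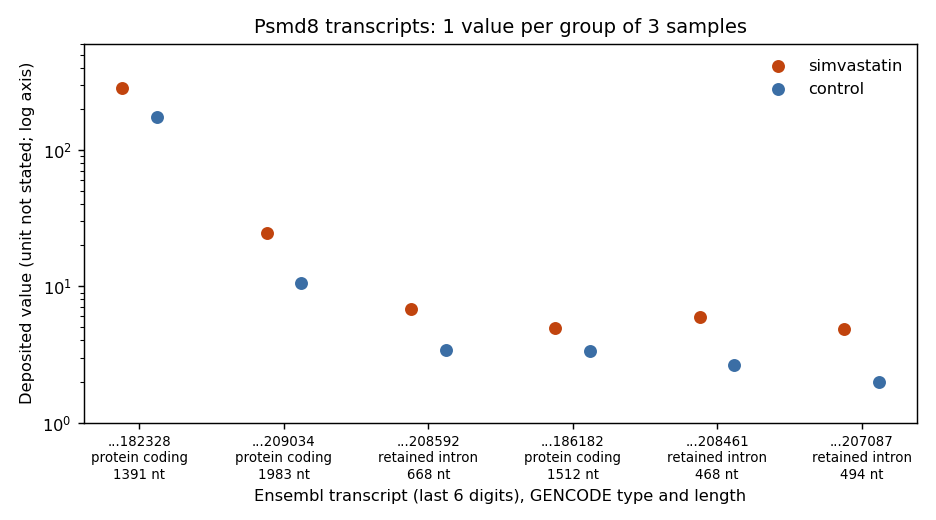
Deposited value (y axis, unstated unit, log axis) of each of the 6 Psmd8 transcripts (x axis, with GENCODE type and length), 1 point for simvastatin and 1 for control. The simvastatin point is above the control point for each transcript, from 286.87 against 174.41 for the main coding form to 4.85 against 2.00 for a retained-intron form.

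The assembly chaperones, which build the complex and leave it, had the lowest class median, -0.47 on the log2 scale, and all 6 that had rows stood lower under both scalings. Psmg1 to Psmg4 encode the chaperones of the alpha ring, and Psmd5 and Psmd9 those of the base. Psmg1 stood at 12.48 with simvastatin and 19.02 in control, with a fold of -1.52, a p of 0.052 and an adjusted p of 0.265 in the authors' deposited table. Psmg3, the partner of Psmg4, stood at 13.40 with simvastatin and 19.60 in control, with a fold of -1.46, a p of 0.015 and an adjusted p of 0.138 in the authors' deposited table. Psmg2, the partner of Psmg1, stood at 16.21 with simvastatin and 19.81 in control, with an adjusted p of 0.177 in the authors' deposited table. Psmg1 had the lowest ratio of the class, 0.656. Psmg4 totalled 9.63 with simvastatin and 12.69 in control, over 2 short transcripts that both stood lower. Psmd5 totalled 11.19 with simvastatin and 16.42 in control. Psmd9 stood at 9.31 with simvastatin and 11.54 in control. Pomp, the chaperone of the beta ring, is no member by its symbol and, named after its values were seen, stood at 37.39 with simvastatin and 44.73 in control.

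The direction of the activators and the inhibitor as a class depends on the setting. Their median log2 difference was -0.05 by gene totals, with 3 of 5 lower. It was -0.17 by the most abundant transcript, with 4 of 5 lower, and 0.15 by gene totals after scaling to the same sum. Psme4, a large nuclear activator known for its part in histone turnover, stood at 38.11 with simvastatin and 30.61 in control. The authors' deposited table gives Psme4 a fold of 1.24, a p of 0.039 and an adjusted p of 0.225. Psme3, the nuclear cap, stood at 58.72 with simvastatin and 66.90 in control, with a fold of -1.14, a p of 0.03 and an adjusted p of 0.197 in the authors' deposited table. The nuclear activators thus had unequal ratios, 1.25 for Psme4 and 0.878 for Psme3, and their difference was not tested. Psmf1, which binds the core and inhibits it in vitro, stood at 7.00 with simvastatin and 7.88 in control.

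Psme1 and Psme2 encode the interferon-induced cap of the core. Psme1 totalled 20.28 with simvastatin and 21.02 in control, and each of its 2 transcripts stood within a fold of 1.06 of control in the authors' deposited table. Psme2 totalled 16.66 with simvastatin and 15.71 in control. Its coding transcript stood at 8.62 with simvastatin and 10.58 in control, and its 2 retained-intron transcripts stood at 6.08 and 1.96 with simvastatin, against 3.67 and 1.46 in control. The higher total of Psme2 therefore lay in its retained-intron forms. The larger of them has a fold of 1.65, a p of 0.042 and an adjusted p of 0.235 in the authors' deposited table. The immunoproteasome subunits Psmb8, Psmb9 and Psmb10 had no matching row and were not analysed here, nor were the germ-cell subunit Psma8, the thymus subunit Psmb11 and the base chaperone Psmd10.

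Transcripts of a single gene often disagreed. Of the 42 genes, 20 had 1 transcript in the table and 22 had more, and in 12 of these the transcripts ran in both directions. Taking the most abundant transcript of each gene, 39 of 42 stood lower, with a median log2 difference of -0.32. The 34 other transcripts were divided, with 16 lower and a median of 0.078. By GENCODE type, 42 of 50 protein-coding transcripts stood lower and 7 of 16 retained-intron transcripts did. The 39 lower by gene total and the 39 lower by most abundant transcript are not the same genes. Psmd12 stood lower by its total and higher by its most abundant transcript, and Psme2 the reverse. For Psmc2 the most abundant transcript is an assembled model.

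Transcript length moved with the direction among protein-coding transcripts with a mean value of at least 10. Of the member transcripts among them, 21 were under 1500 nt and 18 were 1500 nt or more. Of all protein-coding transcripts with a mean value of at least 10, those under 1500 nt stood lower in 63.5% of 995 cases, with a median log2 difference of -0.16. Those of 1500 nt or more stood lower in 43.0% of 2922 cases, with a median of 0.082. Among the members, 20 of 21 transcripts under 1500 nt stood lower, with a median of -0.35, and 15 of 18 of 1500 nt or more did, with a median of -0.29. The gap between members and the table was wider for the long transcripts than for the short ones. The part of length in the members' shared direction was not tested beyond these values.

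Some loci overlap others. On the same strand, Psma2 overlaps AW209491 and Psmd13 overlaps Gm15542, both with rows of their own in the table. On the other strand, Psma3, Psmb7, Psmc3 and Psmd3 overlap genes that have rows. The libraries were stranded, but whether the counting used strand is not known here. Proteasome genes also have processed pseudogenes in the mouse genome, and the treatment of reads that map to several places is not known either, so small differences of single members are uncertain.

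Promoters are shown for Psmd8, the only member with transcripts called by the authors, and for 4 lower members, Psmb3, Psmc1, Psmg3 and Psmb6. These 4 had the smallest p in the authors' deposited table among the lower members with an entry. The sequences are those of RefSeq on GRCm38.p6, 250 bases before to 50 after the start of the gene, and 35 of the 42 members had one. The windows follow the RefSeq start, which can differ from that of GENCODE. They lie at chr7:29180624-29180923 on the minus strand for Psmd8, chr11:97703184-97703483 on the plus strand for Psmb3 and chr12:100109952-100110251 on the plus strand for Psmc1. That of Psmg3 lies at chr5:139826845-139827144 on the minus strand and that of Psmb6 at chr11:70525107-70525406 on the plus strand. Capitals mark any match, on either strand, to 4 motifs: the core of the antioxidant response element TGACNNNGC, the kind of element NRF1 binds, the CCAAT box, the GC box GGGCGG and the ETS site CCGGAAG.
Psmd8: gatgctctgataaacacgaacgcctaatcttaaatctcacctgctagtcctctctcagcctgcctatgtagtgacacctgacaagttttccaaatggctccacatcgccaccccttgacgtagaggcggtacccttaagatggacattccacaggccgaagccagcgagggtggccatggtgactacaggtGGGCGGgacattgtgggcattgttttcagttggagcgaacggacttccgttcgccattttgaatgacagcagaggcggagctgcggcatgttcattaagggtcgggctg
Psmb3: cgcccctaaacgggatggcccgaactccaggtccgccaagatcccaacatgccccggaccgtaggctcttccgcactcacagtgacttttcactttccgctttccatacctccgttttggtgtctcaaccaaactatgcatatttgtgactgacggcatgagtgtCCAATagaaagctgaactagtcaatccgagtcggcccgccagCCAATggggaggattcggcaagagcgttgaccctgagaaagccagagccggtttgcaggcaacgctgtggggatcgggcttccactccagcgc
Psmc1: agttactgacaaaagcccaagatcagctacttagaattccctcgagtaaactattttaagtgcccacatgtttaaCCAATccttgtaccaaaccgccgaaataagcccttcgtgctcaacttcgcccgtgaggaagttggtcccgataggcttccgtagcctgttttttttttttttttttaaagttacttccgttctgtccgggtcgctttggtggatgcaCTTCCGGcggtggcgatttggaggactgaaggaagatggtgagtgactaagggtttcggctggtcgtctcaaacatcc
Psmg3: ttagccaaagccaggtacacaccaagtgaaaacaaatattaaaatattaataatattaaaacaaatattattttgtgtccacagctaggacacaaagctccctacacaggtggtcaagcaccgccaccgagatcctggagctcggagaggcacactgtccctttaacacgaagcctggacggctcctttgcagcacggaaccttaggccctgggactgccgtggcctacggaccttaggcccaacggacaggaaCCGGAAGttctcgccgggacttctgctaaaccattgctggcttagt
Psmb6: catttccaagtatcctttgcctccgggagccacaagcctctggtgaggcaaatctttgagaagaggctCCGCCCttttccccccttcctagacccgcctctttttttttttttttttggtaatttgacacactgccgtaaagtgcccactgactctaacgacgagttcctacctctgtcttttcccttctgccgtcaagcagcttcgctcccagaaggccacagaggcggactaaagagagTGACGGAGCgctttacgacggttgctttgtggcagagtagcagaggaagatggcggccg

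Among these windows, that of Psmd8 holds 1 GC box, at bases 192 to 197 counted from its first base, and no match to the other letters. Psmb3 holds CCAAT at bases 166 to 170 and again at 208 to 212. Psmc1 holds CCAAT at bases 76 to 80 and the ETS letters, on the reverse strand, at 223 to 229. Psmg3 holds the ETS letters at bases 255 to 261, just past the start. Psmb6 holds the antioxidant response core at bases 242 to 250, just before the start, and a GC box on the reverse strand at 69 to 74. The 4 lower genes do not share 1 motif among them.

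Over all 35 members with a window, the ETS letters were found in 14 (40.0%), against 9.93% of the 27025 promoters of the RefSeq table and 23.6% of the 6092 that belong to genes of the comparison. The antioxidant response core was found in 6 (17.1%), namely Psmb5, Psmb6, Psmc6, Psmd12, Psmd9 and Psme4, against 14.0% of all promoters and 17.4% of those of the comparison's genes. The GC box was found in 21 (60.0%), against 38.2% and 73.1%. CCAAT was found in 11 (31.4%), against 41.1% and 43.5%. The ETS motif was added after counts among the members had been seen. A match is a description of the letters and not of a bound site.

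Genes that work with the proteasome were divided. Of 11 listed proteasome-associated genes, 9 had rows, 6 with a lower and 3 with a higher gene total, and the median log2 difference was -0.17. Sem1, the smallest lid subunit, stood at 72.16 with simvastatin and 93.08 in control, on the side of the other lid genes, with an adjusted p of 0.714 in the authors' deposited table. Zfand5, a zinc finger protein known to stimulate the 26S proteasome in muscle wasting, stood at 67.54 with simvastatin and 50.30 in control, with an adjusted p of 0.087 in the authors' deposited table. Uchl5, a deubiquitinase of the base named here after its values were seen, totalled 6.09 with simvastatin and 12.26 in control. The authors call 1 of its 3 transcripts lower, at 1.07 with simvastatin and 3.11 in control, with an adjusted p of 0.069 in the authors' deposited table. Its partner Adrm1, the receptor to which it binds and likewise named afterwards, stood at 43.07 with simvastatin and 47.15 in control.

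Of 12 listed genes of ubiquitin and its shuttle factors, 11 had rows, 6 with a higher and 5 with a lower total, and the median log2 difference was 0.012. Ubb, which encodes a chain of ubiquitin units, totalled 259.85 with simvastatin and 221.86 in control, with no transcript called in the authors' deposited table. Vcp, the ATPase that pulls ubiquitin-tagged proteins out of membranes and complexes, stood at 219.37 with simvastatin and 188.22 in control, with an adjusted p of 0.253 in the authors' deposited table. The only gene of the list with a transcript called by the authors is Rps27a, which encodes ubiquitin fused to a ribosomal protein. The called transcript of Rps27a is an assembled model that is listed at 0 with simvastatin and stood at 6.09 in control, with an adjusted p of 0.059 in the authors' deposited table. The gene total of Rps27a was 152.77 with simvastatin and 136.86 in control, so the called transcript and the total lay on opposite sides.

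The listed genes that make, process, partner or restrain NRF1 stood on the other side from the subunit genes. Of 8 listed, 6 had rows, and all 6 had a higher gene total, as did 4394 of the 8505 genes of the table with a ratio. The median log2 difference of the 6 was 0.42, against 0.019 over all genes, and the difference was not tested. The 6 include Syvn1, which keeps NRF1 low, so their shared direction does not show whether NRF1 activity differed. Nfe2l1, which encodes NRF1, totalled 96.11 with simvastatin and 49.94 in control over 5 transcripts. The authors call 1 of these higher, at 29.32 with simvastatin and 14.18 in control, a fold of 2.07 with an adjusted p of 0.192 in the authors' deposited table. The most abundant transcript of Nfe2l1 is another one, at 56.66 with simvastatin and 17.34 in control. Most of the difference in the total lay in that transcript, which is not called and has an adjusted p of 0.505 in the authors' deposited table. Mafg, a small MAF partner of NRF1, totalled 33.37 with simvastatin and 25.06 in control, with no transcript called. Syvn1, the ubiquitin ligase that keeps NRF1 low and is named here after its values were seen, totalled 12.18 with simvastatin and 5.69 in control, while the only transcript the authors call is lower, at 0.18 with simvastatin and 1.71 in control. By the adjusted p of the authors' deposited table, 0 genes of this list passed 0.05.

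**Figure D5:**
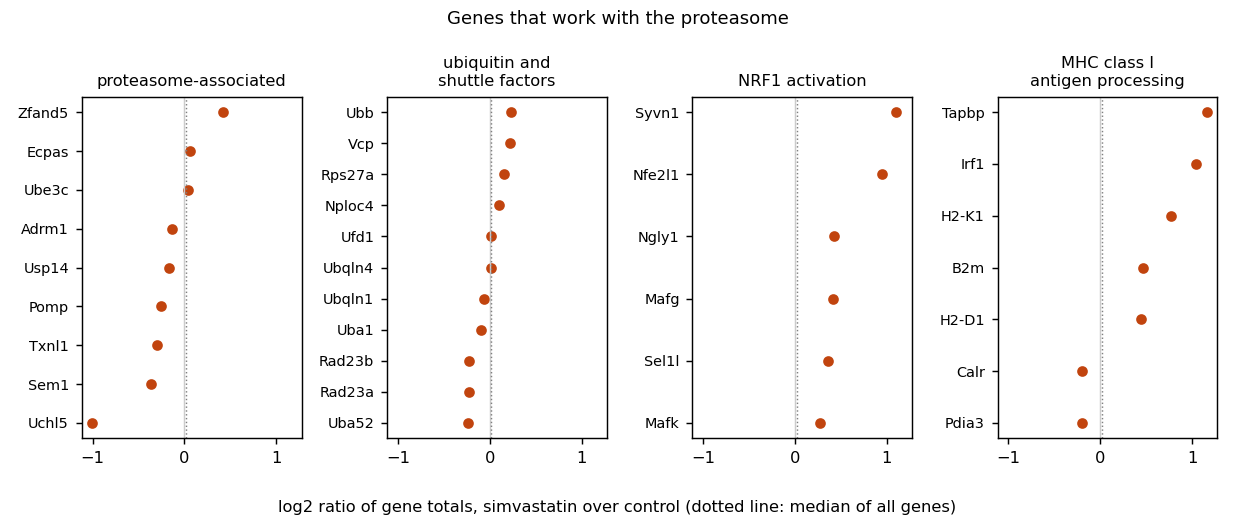
Log2 ratio of gene totals, simvastatin over control (x axes), for genes with rows in 4 lists of genes that work with the proteasome, sorted within each list, with a dotted line at the median of all genes. The list headed NRF1 activation lies to the right of 0 in all 6 genes, and the other lists have genes on both sides. The list so headed also holds Syvn1, the ligase that keeps NRF1 low. Scaling to the same sum moves every gene to the right, so it is no check on the genes that already lie right of 0.

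Antigen processing for MHC class I uses peptides that the proteasome makes. Of 12 listed genes, 7 had rows, 5 with a higher and 2 with a lower total. Of the 7, 4 genes have at least 1 transcript called higher by the authors. That call marks 5.13% of all transcripts as higher, but the share of all genes with such a transcript is not given here. The count of 4 genes therefore has no matching background. For H2-D1, 1 of these 4, the gene total was 43.5 with simvastatin and 31.9 in control. Its called transcript stood at 4.53 with simvastatin and 2.2 in control, a fold of 2.06. The authors' deposited table prints the adjusted p of that transcript as 0.05, which is at the threshold and not under it. The most abundant transcript of H2-D1 is not the called one and stood at 24.21 with simvastatin and 27.39 in control. The 2 genes with a lower total were the chaperones of class I folding with the highest totals. Calr stood at 315.17 with simvastatin and 361.80 in control. Pdia3 stood at 204.05 with simvastatin and 235.13 in control. Tapbp, which loads peptide onto class I molecules and is named here after its values were seen, stood at 16.10 with simvastatin and 7.17 in control, with an adjusted p of 0.088 in the authors' deposited table. Irf1, a factor that switches on immunoproteasome genes and is likewise named afterwards, stood at 4.30 with simvastatin and 2.09 in control, with an adjusted p of 0.145 in the authors' deposited table. By the adjusted p of the authors' deposited table, 0 genes of the 4 lists passed 0.05, where 1.11% of transcripts were higher and 0.987% lower.

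The authors' deposited table of enriched terms names few members. Of its 68 terms for genes lower with simvastatin, 0 list a proteasome gene. Terms built from the authors' call could list none, as it marks 0 member transcripts as lower. Of the 80 terms for higher genes, 11 list a proteasome gene. Psmd8 stands in 6 of them, all KEGG disease pathways that include the proteasome, and 3 of these have a false discovery rate under 0.05 in the authors' deposited table: 1.61e-03 for Alzheimer disease, 1.34e-02 for Parkinson disease and 3.35e-02 for neurodegeneration in multiple diseases. The other 3 do not, with 9.05e-02 for amyotrophic lateral sclerosis, 0.110 for prion disease and 0.175 for Huntington disease in the authors' deposited table. These 6 terms count 21 to 35 genes each, with Psmd8 the only member in them, so the rates describe the whole terms. Psme2 stands in 4 broad terms and Psmc5 in 1, transmembrane transport, although the authors' call marks no transcript of either gene. The cell of that transport term in the authors' deposited table lists 37 identifiers, beside a printed count of 41, and 1 of the 37 is called higher in the main table. Membership of Psme2 and Psmc5 in terms for higher genes therefore does not follow from the main table. The tables of network links, of genes tied to aggressiveness and of A375 cells name 0 members.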

How the data were processed

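RNA of 6 B16.F10 samples, 3 given simvastatin and 3 untreated by their titles, was sequenced from stranded total RNA libraries, per the labels' protocols. The submitters' processing notes name HISAT2 2.0.5, StringTie and the build GRCm38, also called mm10. For the counting, the low-value filter, the unit and the statistical test, no method is given in the sources used here. Per the file headers, the deposited table holds 1 value (a score of unstated unit) per group and transcript, the authors' signed linear fold ratio, a p-value and an adjusted p-value printed to 3 decimals, and a yes or no call. Called transcripts reached an adjusted p of 0.2 at most and a fold of 1.5 at least. The authors' other deposited tables give enriched terms with gene counts, a percent and fold enrichment, interaction scores, and log2 fold changes with p-values beside A375 cells. From these only the names of member genes, the printed count of genes and the false discovery rate of terms were used.

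No test was refitted. Here, transcript values were summed per gene (gene total) and log2 ratios of simvastatin over control were taken with no pseudocount, leaving out 8 genes listed at 0 in a group. Rows of the table were matched to GENCODE mouse release 21 (GRCm38), which held all 73 Ensembl transcripts of the members, and 3 others were assembled models. The 3 samples of each group are called biological replicates. As the statistical test is not named, the spread that the authors' p-values measure is not known. The members, their classes, the lists and the motifs were chosen with earlier results of these data known. Named genes were all activators, the 3 largest differences of each other class, and in the other lists the 2 of highest total, and every member with a row was given its total. Outside this rule, Pomp, Uchl5, Adrm1, Rps27a, Syvn1, Tapbp, Irf1 and H2-D1 were named after their values were seen. Of the other lists, 1 gene is not reported here. Motif counts used exact matches on both strands. The counting steps were tested on simulated data. Python 3.11.15, pandas 2.3.3, numpy 2.4.6 and matplotlib 3.10.9 were used.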

Additional observations from a re-analysis of the deposited data

How the results depend on the processing

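The count of member transcripts past the threshold was 0 in each direction with an adjusted p under 0.05, and stayed at 0 with Ensembl transcripts only and with a mean value of at least 1 (74 of 76 transcripts). It was 4 higher and 0 lower by the authors' call, and 7 higher and 9 lower at an unadjusted p under 0.05. By gene it was 1 higher by the authors' call, and 3 higher and 9 lower at an unadjusted p. No share over all genes is given here beside these gene counts. The median log2 difference of the 42 genes, -0.31, was -0.32 with the most abundant transcript, -0.30 with every transcript as a row, -0.30 with a pseudocount of 1, -0.11 with both groups scaled to the same sum and -0.33 centred on all genes. Leaving out Psmd8, chosen after seeing the data, kept it at -0.31 and put the lid at -0.28. By class, scaling to the same sum gave -0.23 for alpha, -0.15 for beta, -0.079 for the base, -0.07 for the lid, -0.28 for the chaperones and 0.15 for the activators, whose sign turned. A pseudocount of 1 gave -0.42 for alpha, -0.34 for beta, -0.27 for the base, -0.26 for the lid and -0.44 for the chaperones. The most abundant transcript gave -0.38 for alpha, -0.32 for the base, -0.46 for the chaperones and -0.17 for the activators. Apart from the scaling, the cause of these differences was not tested.

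No paired analysis was possible because the columns carry 1 value per group and no replicate number. No replicate was left out for the same reason. The SD and the depth behind each value are unknown.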
